A study of Mus musculus with 2 samples.

Results

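The collagens other than type IV were followed in single cells of subcutaneous mouse tumours. Genes were taken by symbol, as every row named Col, a number, a and a number in both libraries, with Col4a1 to Col4a6 left out. This gave 38 of the 19070 genes listed. The choice used names and no measured value. Each member with at least 1000 UMIs over both libraries, 18 in all, is described below, and 20 others are given by counts.

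Collagens are mostly secreted proteins in which 3 chains wind into a triple helix. The fibrillar types (I, II, III, V, XI, XXIV, XXVII) assemble into the banded fibrils of connective tissue, and type I is the main product of activated fibroblasts. Type VI forms beaded microfilaments around cells, type VII anchors basement membranes to the stroma below, and types IX, XII, XIV, XVI and XX bind to the surface of fibrils or to other matrix. Types XV and XVIII carry heparan or chondroitin sulphate and lie near basement membranes, and the end of the type XVIII chain is the source of endostatin, a fragment known to restrain vessel growth. In tumours, collagens come from both the host stroma and the cancer cells.

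LLC (Lewis lung carcinoma), a line of mouse lung cancer cells, was grown under the skin to give the tumours. One library came from tumours of mice given an IgG2a isotype control antibody, called control here. The other came after treatment with an antibody to PD-1, a receptor that restrains T cells, and its cells were collected 7 days after treatment. The sample labels name the isotype antibody, whereas the series design calls the control cells untreated, and gives no time for them. Strain, age and sex, and the number of mice behind each library, are not given in the sources used here. Each group has 1 library, so no difference between them has a replicate check or a test. Intervals (95%) cover counting error only, and the treatment cannot be told apart from the animal, the tumour or the preparation.

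The control library held 8441 barcodes and 113268618 unique molecular identifiers (UMIs, 1 per captured molecule). The anti-PD-1 library held 9423 barcodes and 115407230 UMIs. The libraries shared 107 barcodes, which is 1.27% of the control and 1.14% of the anti-PD-1 barcodes. Kept cells, 8395 and 9422, had 300 genes or more and no more than 20% of their UMIs from mitochondrial genes. Levels are UMIs summed over the cells of a class, per 1000000 UMIs of that class (CPM). Globin genes of red cells summed to 728 CPM in control and 61.2 CPM in anti-PD-1. The part of red cell RNA in the results below was not tested.

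Cells were put in classes by marker genes, none of them a collagen. Tumour-marker cells passed the list Hmga2, Igf2bp1, Igf2bp2 and Wnt7b, which are oncofetal and growth genes detected in these cells. They numbered 3120 (37.2%) in control and 4729 (50.2%) in anti-PD-1. Fibroblast-marker cells passed Dcn, Lum, Dpt, Pdgfra, Mfap5 and Clec3b, and numbered 233 and 406. Cells that passed both of these lists, called double-marker cells, numbered 357 and 617. Endothelial-marker cells were few, 54 and 32, and immune-marker cells numbered 2245 and 2194. Cells that passed any other combination of lists were set aside as mixed, 1141 and 650. Of these, 71.2% and 70.2% passed the tumour and immune lists and no other. Cells that passed none, 1245 and 794, were left unmarked. Less than 25% above their limit lay 139 and 186 tumour-marker cells, and 24 and 37 fibroblast-marker cells.

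Most cells of the fibroblast class also carried tumour markers. The median fibroblast-marker cell carried 286 CPM of the tumour list in control and 314 CPM in anti-PD-1, where the limit for a tumour-marker cell was 500 CPM. In immune-marker cells the median was 0, but those cells were shallow (median depth 1966 and 2193 UMIs, against 8208 and 7505 for fibroblast-marker cells). Summed over all cells of the class, the tumour list stood at 251.8 and 200.2 CPM in immune-marker cells. In fibroblast-marker cells this sum was 288.1 and 299.6 CPM. The medians of these classes thus differ in part by depth, and the 2 classes were not compared at equal depth for this list. Only 37 of the 233 control cells and 67 of the 406 anti-PD-1 cells had under 100 CPM of tumour markers. The class is therefore called fibroblast-marker cells, and its results are also given for this smaller group.

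A pair of fibrillar members with strong signal in tumour-marker cells, Col3a1 and Col5a3, is shown by its promoter, because the levels of these genes spread very differently over cells. Col3a1 gives the chain of type III collagen and lies on the plus strand of chromosome 1, at 45311538 to 45349706. Col5a3 gives the third chain of type V collagen and lies on the minus strand of chromosome 9, at 20770050 to 20815067 (GRCm38/mm10, GENCODE M21). Each run below is the 250 bases before the RefSeq start site on GRCm38, printed on the gene's strand. Neither overlaps an annotated exon. Capitals mark matches to 3 motifs, searched on both strands, with no overlap between matches in these windows: the letters TATAAA of a TATA box, the letters CCAAT of a CCAAT box, and the letters GGGCGG of a GC box, which reads CCGCCC on the other strand.
Col3a1, chr1:45311288-45311537, plus strand: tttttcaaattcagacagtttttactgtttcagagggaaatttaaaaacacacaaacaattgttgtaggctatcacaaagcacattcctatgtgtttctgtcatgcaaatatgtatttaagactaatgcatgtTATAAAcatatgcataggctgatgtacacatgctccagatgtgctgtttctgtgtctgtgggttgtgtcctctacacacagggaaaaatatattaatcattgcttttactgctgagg
Col5a3, chr9:20815068-20815317, minus strand: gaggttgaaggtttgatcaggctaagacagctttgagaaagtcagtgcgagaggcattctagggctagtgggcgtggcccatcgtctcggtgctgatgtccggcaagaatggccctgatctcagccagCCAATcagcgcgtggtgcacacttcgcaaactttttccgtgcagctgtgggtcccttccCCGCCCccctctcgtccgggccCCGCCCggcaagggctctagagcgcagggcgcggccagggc

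The Col3a1 window was 35.2% G and C and held 1 TATAAA. The Col5a3 window was 62.8% G and C and held 1 CCAAT and 2 GGGCGG. Among all 32851 RefSeq windows of this length, TATAAA was in 12.4%, CCAAT in 33.8% and GGGCGG in 32.7%. RefSeq windows were found for 30 of the 38 collagens, 33 windows in all, of which 5 held TATAAA, 10 CCAAT and 19 GGGCGG. A match is a run of letters only, and a window without one says nothing of a factor.

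Collagen UMIs were spread unevenly over the members. Col3a1 (629971), Col18a1 (392284) and Col6a3 (225372) had the most over both libraries. Of the 38 genes, 18 had at least 1000 UMIs over both libraries, 5 had at least 100 but under 1000 (Col2a1, Col14a1, Col17a1, Col20a1 and Col27a1) and 15 had fewer than 100. Those 15 were Col6a4, Col6a5, Col6a6, Col8a2, Col9a1, Col9a2, Col10a1, Col11a1, Col13a1, Col19a1, Col22a1, Col23a1, Col25a1, Col26a1 and Col28a1. They held between 10 (Col25a1) and 86 UMIs (Col8a2). Counts depend on the probes of each gene, so levels were compared within a gene and not between genes.

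At the marker limits used, tumour-marker cells held the largest share of collagen UMIs of any class. In control it was 48.4% (48.3 to 48.5) of all member UMIs, and in anti-PD-1 it was 55.1% (55.0 to 55.2), below their 62.0% and 71.1% of the UMIs of all genes. With the marker limits halved, the collagen shares were 21.6% and 31.5%. Fibroblast-marker cells held 13.7% and 15.8%, beside 2.005% and 3.02% of the UMIs of all genes, double-marker cells 9.78% and 14.4%, and immune-marker cells 1.66% and 1.03%. Mixed cells held 22.4% and 10.2%.

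**Figure D1:**
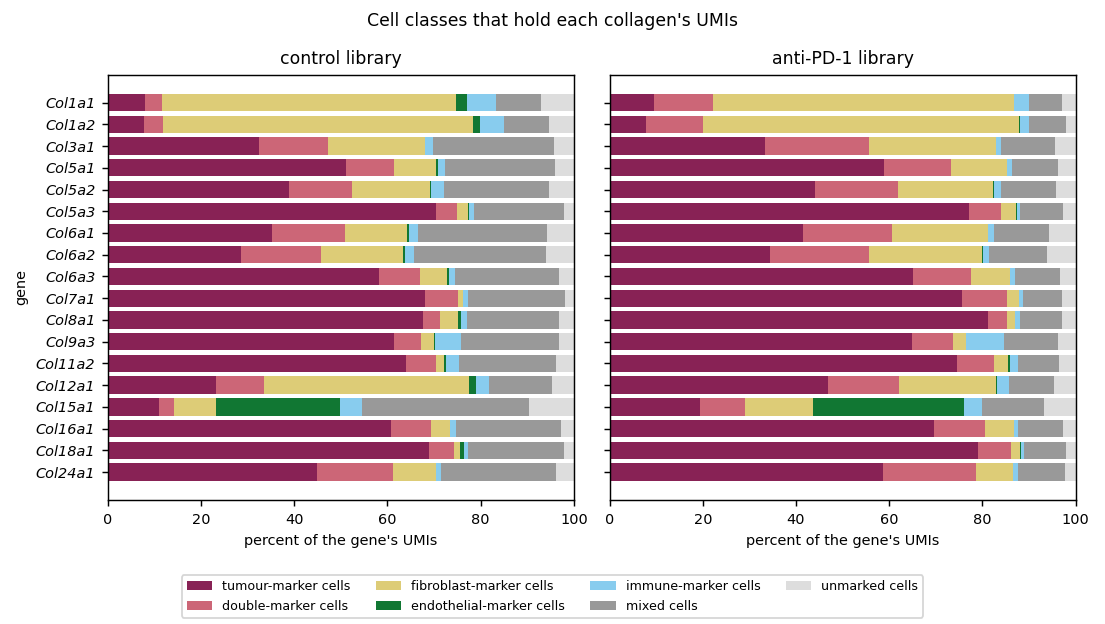
Horizontal bars give, for each of the 18 collagens with at least 1000 UMIs, the percent of its UMIs that fell in each cell class, in the control library (left) and the anti-PD-1 library (right). Type I chains lay mostly in fibroblast-marker cells (Col1a1 63.1% and 64.5%), whereas most Col18a1 UMIs (68.8% and 79.0%) lay in tumour-marker cells.

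The members differed in which class held their UMIs. Fibroblast-marker cells held 63.1% of Col1a1 UMIs in the control library and 64.5% in the other, and 66.7% and 67.9% of those of Col1a2. By contrast, tumour-marker cells held 70.5% and 77.2% of Col5a3, 68.8% and 79.0% of Col18a1, 68.1% and 75.6% of Col7a1, and 67.6% and 81.1% of Col8a1, each to be read beside the 62.0% and 71.1% of all UMIs in that class. Col3a1 was split, with 32.4% and 33.4% in tumour-marker cells, 20.8% and 27.3% in fibroblast-marker cells, and 14.9% and 22.2% in double-marker cells. Col15a1 was the member with the largest share in endothelial-marker cells among these 18, at 26.6% and 32.3%.

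Fibroblast-marker cells had more than 2-fold the tumour-marker level for 13 of 22 measured members in the control library, against 8.88% of all genes tested, and less than 0.5-fold for 1 member, against 9.78%. A member or gene was measured where it had at least 100 UMIs over the compared cells. In the anti-PD-1 library 13 were higher (6.95% of all genes) and 2 lower (8.97%). The lower members were Col2a1 in both libraries (0.216-fold and 0.343-fold) and Col17a1 in anti-PD-1 (0.0984-fold). These folds rest on 1 and 4 fibroblast-marker UMIs of Col2a1 and on 1 of Col17a1. In control Col17a1 had 0 UMIs there, and a count of 0 was set to 3, so it was not called. The count of lower members is thus at the floor of the data. The largest folds were those of the type I chains. Col1a1 was 243-fold higher than in tumour-marker cells in control and 159-fold in anti-PD-1, and Col1a2 269-fold and 207-fold. Col14a1, a fibril-surface collagen of fibroblasts, was 161-fold and 73.3-fold higher. Col3a1 was 19.8-fold and 19.2-fold higher, Col6a2 19.2-fold and 16.7-fold, and Col6a1 11.7-fold and 11.6-fold. At the other end, Col18a1 stood at 0.623-fold and 0.547-fold, and Col5a3 at 1.05-fold and 1.001-fold. The third type VI chain, Col6a3, was 3.06-fold and 2.99-fold higher, a smaller contrast than those of its partners.

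**Figure D2:**
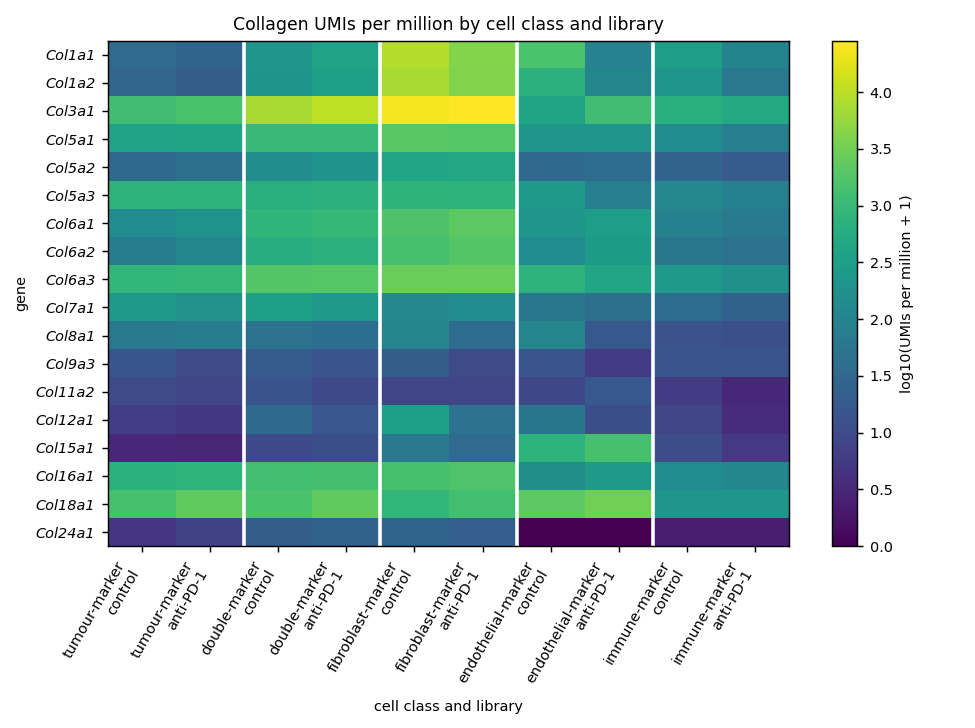
The colour of each square gives log10(CPM + 1) of a collagen (rows) in a cell class of one library (columns). Rows are to be read across classes only, since probe counts do not compare genes. Col1a1 went from 35.4 CPM in control tumour-marker cells to 8605 CPM in control fibroblast-marker cells, whereas Col5a3 was near 742 to 782 CPM in both.

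Type I collagen is made as 2 chains of Col1a1 with 1 of Col1a2. Their UMIs were held by very few cells. Cells with at least 10 type I UMIs and at least 1000 CPM of both genes together, a rule chosen after the values were seen, are called type I-high. In control, 113 of 8395 cells (1.35%) were type I-high and held 83.6% of all type I UMIs. In anti-PD-1, 82 of 9422 cells (0.870%) held 89.2%. Even within the fibroblast-marker class, only 35 of 233 cells (15.02%) and 33 of 406 (8.13%) were type I-high. In 126 of the 233 and 269 of the 406 no type I UMI was seen.

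The fibroblast-marker cells without high type I still carried type III collagen. Their median Col3a1 level was 14270 CPM in control and 22750 CPM in anti-PD-1, beside a median of 46019 and 53083 CPM in the type I-high cells. Their median tumour list was 310 and 331 CPM, and 20 of 198 and 39 of 373 had no tumour-marker UMI. Among type I-high fibroblast-marker cells, 10 of 35 and 20 of 33 had none. A count of 0 type I UMIs in a cell does not show that the cell makes none.

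**Figure D3:**
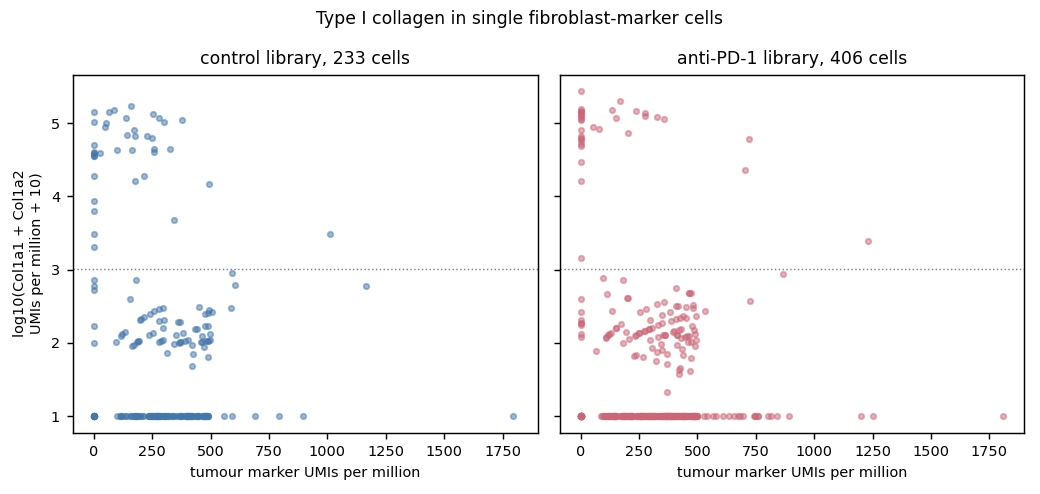
Each point is a fibroblast-marker cell, with its tumour-marker CPM on the x axis and log10(Col1a1 + Col1a2 CPM + 10) on the y axis, for control (left, 233 cells) and anti-PD-1 (right, 406 cells). The dotted line is 1000 CPM. Points on the lowest row had no type I UMI (126 and 269 cells), and the 35 and 33 type I-high cells lie above the line. Other cells lie above it too, up to 6221 CPM in control and 2457 CPM in anti-PD-1, with fewer than 10 type I UMIs.

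Type I collagen in tumour-marker cells was not above its level in immune-marker cells. Their Col1a1 level was 35.4 CPM in control and 26.5 CPM in anti-PD-1, below the 299 and 99.9 CPM of immune-marker cells, which are not known as a source of type I collagen. Single cells weighed heavily on the immune level: 1 control cell held 1004 of its 1878 Col1a1 UMIs and 1 anti-PD-1 cell 438 of 716. Between the libraries, Col1a1 and Col1a2 were the 2 of 14 measured members more than 2-fold lower in immune-marker cells, against 1.93% of all genes, and 0 were higher, against 0.63%. Thinned to 2000 UMIs per cell, 7.20% of tumour-marker and 11.1% of immune-marker cells in control had a Col1a1 UMI. In anti-PD-1 these shares were 4.17% and 7.07%. Without thinning they were 39.4% and 16.7% in control and 25.3% and 8.43% in anti-PD-1, where tumour-marker cells were deeper (median 16926 and 13754 UMIs, against 1966 and 2193). Thinning left out 52 and 53 tumour-marker and 1145 and 964 immune-marker cells as too shallow.

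Several members were seen in more tumour-marker than immune-marker cells. With thinning, Col18a1 was seen in 88.6% of control and 95.2% of anti-PD-1 tumour-marker cells, against 20.5% and 25.2% of immune-marker cells. Col6a3 was seen in 79.6% and 81.0%, against 21.5% and 20.8%. Col16a1, a fibril-associated collagen, was seen in 72.9% and 78.5%, against 16.7% and 15.4%. Col5a3 was seen in 69.7% and 73.7%, against 14.4% and 13.5%, and Col7a1 in 39.0% and 30.7%, against 4.82% and 3.33%. Col3a1 was seen in 63.6% and 77.4%, against 36.2% and 37.6%. Col9a3 (3.16% and 2.29%, against 2.36% and 2.60%) was close to that level in both libraries, as was Col12a1 (1.04% and 0.855%, against 0.909% and 0.650%). Col15a1 was seen in fewer tumour-marker than immune-marker cells (0.359% and 0.385%, against 1.55% and 0.650%). The corresponding unthinned shares in tumour-marker cells ran from 88.2% to 98.2% in control for Col18a1, Col6a3, Col16a1, Col5a3, Col7a1 and Col3a1, and from 76.0% to 99.0% in anti-PD-1.

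Between the libraries, the summed collagen level was somewhat higher in anti-PD-1 tumour-marker cells, a sum weighted to members with many UMIs. Summed over all 38 members, the level was 6040 CPM in control and 7420 CPM in anti-PD-1, a log2 ratio of 0.30 (0.29 to 0.30). Col18a1 carried much of it, since the ratio was 0.14 (0.13 to 0.15) without that gene. No member was more than 2-fold higher and none more than 2-fold lower among 21 measured, where 0.919% of all genes were higher and 2.31% lower. The median log2 ratio of the 21 was 0.13, beside 0.01 for all 11637 genes measured. Directions were split, with ratios below 0 for Col1a1, Col1a2, Col7a1, Col9a3, Col11a2, Col12a1, Col15a1 and Col20a1 and above 0 for the others.

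Col18a1, the endostatin precursor, had the largest ratio in tumour-marker cells among members with at least 1000 UMIs. It stood at 1446 CPM in control and 2360 CPM in anti-PD-1, a log2 ratio of 0.71 (0.70 to 0.72). The gene lies on the minus strand of chromosome 10, at 77052178 to 77166548. It was also higher in the anti-PD-1 library in double-marker cells, with 1504 and 2310 CPM (0.62, 0.58 to 0.66). In fibroblast-marker cells it stood at 901 and 1291 CPM (0.52, 0.44 to 0.60), and in endothelial-marker cells at 2173 and 3169 CPM (0.54, 0.40 to 0.69). In immune-marker cells the levels were 206 and 230 CPM (0.16, 0.05 to 0.27). The same direction was thus seen in every class named here, with the smallest ratio in immune-marker cells. The thinned share of tumour-marker cells with a Col18a1 UMI was 88.6% in control and 95.2% in anti-PD-1.

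The type VI chains differed from each other. Col6a1 stood at 141 and 187 CPM in tumour-marker cells (log2 ratio 0.41, 0.37 to 0.44) and Col6a2 at 74.1 and 111 CPM (0.59, 0.54 to 0.64). Col6a3, the largest chain, stood at 897 and 929 CPM (0.05, 0.03 to 0.07). The Col6a1 and Col6a2 genes neighbour each other on chromosome 10, at 76708792 to 76726168 and 76595762 to 76623630, and Col6a3 is on chromosome 1. Col6a3 also had the smallest ratio of these in fibroblast-marker cells, with log2 ratios of 0.39 for Col6a1, 0.38 for Col6a2 and 0.01 for Col6a3.

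Among fibrillar members, Col3a1 was 1234 CPM in control and 1478 CPM in anti-PD-1 tumour-marker cells (0.26, 0.25 to 0.27). The type V chains ran from 0.02 for Col5a3 through 0.13 for Col5a1 to 0.38 for Col5a2. Col24a1, a minor fibrillar collagen, was higher in anti-PD-1 from few UMIs (289 and 526; 0.64, 0.43 to 0.85). Col2a1, the cartilage collagen, had 143 and 274 UMIs (0.71, 0.42 to 1.02), and Col11a2 was lower (-0.39, at 9.87 and 7.56 CPM). The chains of type V thus had different ratios.

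Col7a1, the anchoring fibril collagen, went the other way. It was 248 CPM in control and 179 CPM in anti-PD-1 tumour-marker cells (-0.47, -0.50 to -0.44), and 335 and 245 CPM in double-marker cells (-0.45, -0.54 to -0.35). Col9a3 (-0.57) and Col20a1 (-0.38), both fibril-associated, were also lower in tumour-marker cells, Col9a3 from a level close to that of immune-marker cells. Col16a1 was higher, at 687 and 817 CPM (0.25, 0.23 to 0.27), as was the network-forming Col8a1, at 61.7 and 73.2 CPM (0.25, 0.19 to 0.30). The immune list, a measure of foreign RNA, summed to 504 CPM in control and 397 CPM in anti-PD-1 tumour-marker cells, beside 7378 and 8016 CPM in immune-marker cells. Its part in these differences was not tested.

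**Figure D4:**
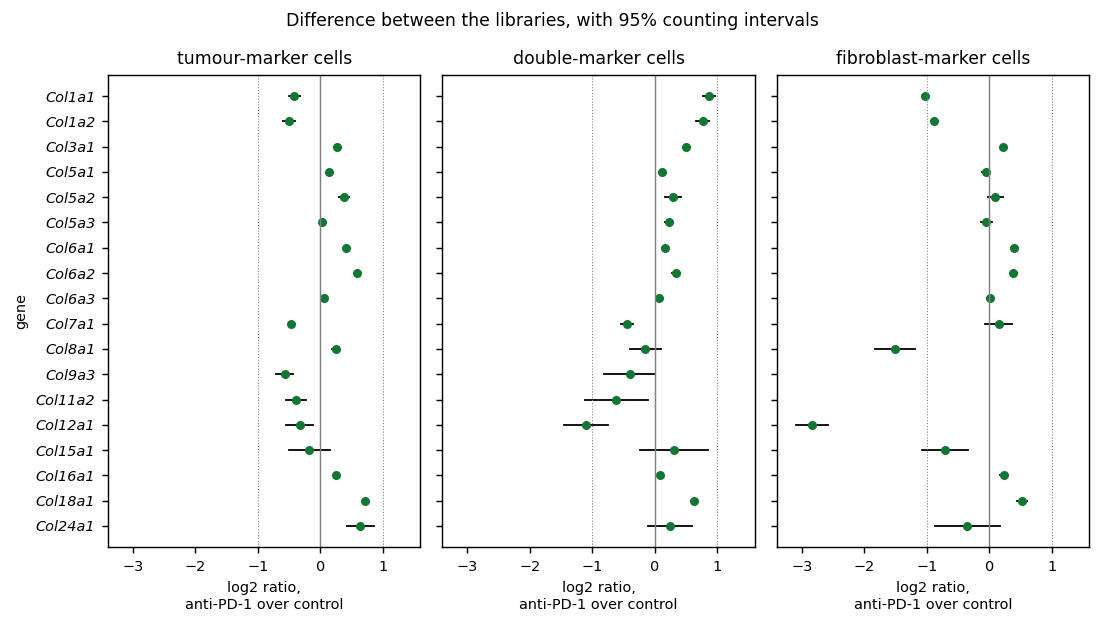
Points are log2 ratios of CPM, anti-PD-1 over control, for collagens with at least 1000 UMIs, in tumour-marker, double-marker and fibroblast-marker cells. Bars are 95% counting intervals, dotted lines mark 2-fold, and members with under 100 UMIs in a class have no point. Col18a1 lies at 0.71, 0.62 and 0.52 in the 3 panels, and Col12a1 reaches -2.83 in fibroblast-marker cells.

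In fibroblast-marker cells, 4 of 17 measured members were more than 2-fold lower in anti-PD-1, against 2.54% of all genes, and 0 were higher, against 0.279%. They were Col1a1, Col8a1, Col12a1 and Col14a1. The median of the 17 was -0.05, beside 0.02 for all genes. Col12a1, a long fibril-surface collagen of tissues under tension, had the largest ratio. It stood at 323 CPM from 733 UMIs in control, against 45.3 CPM from 158 UMIs in anti-PD-1, a log2 ratio of -2.83 (-3.09 to -2.58). It was also the 1 member of 23 more than 2-fold lower over all cells, with 14.7 and 6.59 CPM (-1.16, -1.28 to -1.03), where 4.88% of all genes were lower, 0.566% of genes were higher and no member was. Without cells over 3 times the median UMIs, 0 members were more than 2-fold lower over all cells, with no share of all genes computed. Col8a1 stood at 106 and 37.3 CPM (-1.51, -1.83 to -1.20), Col14a1 at 93.8 and 38.4 CPM (-1.29, -1.61 to -0.97) and Col1a1 at 8605 and 4222 CPM (-1.03, -1.06 to -0.996). Col1a2, at 7523 and 4083 CPM (-0.88, -0.91 to -0.85), lay just inside 2-fold, and Col15a1, at 57.7 and 35.3 CPM (-0.71, -1.08 to -0.34), was lower as well. Other members were higher, such as Col18a1 above and Col6a1.

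The share of type I-high cells in the class was 15.02% in control and 8.13% in anti-PD-1. For Col1a1 and Col1a2 this share is no separate measure, since both genes define it. Its part in the other differences was not tested. Within type I-high fibroblast-marker cells alone, Col12a1 was still lower, at 1454 and 531 CPM (-1.45, -1.74 to -1.18), and Col8a1 at 328 and 171 CPM (-0.94, -1.46 to -0.44). Col14a1 was not lower there, at 428 and 543 CPM (0.34, 0.02 to 0.66). Col6a1 was higher, at 1320 and 2653 CPM (1.01, 0.85 to 1.17), and Col15a1 too, at 265 and 494 CPM (0.90, 0.53 to 1.27). The type I chains themselves were used to choose these cells and are not compared. In the remaining fibroblast-marker cells Col3a1 stood at 15477 and 25714 CPM (0.73, 0.71 to 0.75).

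The members of the marker list itself were not at equal levels. Mfap5 and Clec3b, both known from adventitial fibroblasts, were at 314 and 138 CPM and at 113 and 45.3 CPM (-1.19 and -1.32), whereas Lum was at 684 and 1112 CPM (0.70). The summed list of all 6 was 4019 and 4336 CPM, with none at 0. Mfap5 and Clec3b were thus lower, whereas Lum and the summed list were higher. Dcn, Dpt and Pdgfra are given here only within the sum, so Mfap5 and Clec3b do not stand for the list. The part of the list's makeup in the result was not tested.

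Few cells carried these values. The 5 cells with most Col12a1 held 62.5% of its control and 63.3% of its anti-PD-1 UMIs in the fibroblast-marker class. Without the top cell of each library, the Col12a1 ratio was -3.41, that of Col8a1 -1.42, that of Col14a1 -1.24 and that of Col1a1 -1.03. Col15a1, at -1.06, then passed 2-fold too. Where each cell weighed the same (the mean of CPM over cells), and where cells over 3 times the median UMIs were left out, only 1 member remained more than 2-fold lower, Col12a1, which held under each of 8 alternatives (-3.15 to -2.06). Col1a1 ran from -1.05 to -0.21 over the same alternatives. For the equal-weight and depth settings the share of all genes past 2-fold was not computed.

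In the fibroblast-marker cells with under 100 CPM of tumour markers, 4 of 15 measured members were more than 2-fold lower, against 10.1% of all genes, and 1 was higher, against 6.36%. Col12a1 was 812 and 91.8 CPM (-3.15, -3.67 to -2.65) and Col8a1 282 and 84.7 CPM (-1.74, -2.34 to -1.16). Col18a1, the 1 member higher, was 353 and 859 CPM (1.28, 0.97 to 1.61), below its tumour-marker level in both libraries. Col1a1 was 26261 and 18107 CPM (-0.54, -0.58 to -0.49), less than 2-fold apart. Col3a1 was close in both libraries, at 45743 and 47050 CPM (0.04, 0.01 to 0.07). These are 37 and 67 cells, with median depths of 3643 and 6002 UMIs.

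Double-marker cells lay between the single classes for many members. In control, 11 of 21 measured members were more than 2-fold above the tumour-marker level, against 3.4% of all genes, and 1 below, against 1.25%. The lower one was Col17a1 at 0.229-fold, from 3 double-marker UMIs. In anti-PD-1 these were 11 (3.05%) and 0 (0.794%). Col3a1 was 7488 CPM in control and 10525 CPM in anti-PD-1 (0.49, 0.47 to 0.51), between its levels in tumour-marker and fibroblast-marker cells. Col1a1 was 207 and 377 CPM (0.86, 0.76 to 0.97), opposite in direction to the fibroblast-marker class, but 1 control cell held 729 of 1097 UMIs and 1 anti-PD-1 cell 923 of 2886. Without these cells the ratio was 1.86 (1.69 to 2.02). Type I-high cells here were 5 of 357 in control and 10 of 617 in anti-PD-1, with 1766 and 5155 type I UMIs. The thinned share of double-marker cells with a Col1a1 UMI went the other way, at 6.74% in control and 4.89% in anti-PD-1. The ratio thus rests on few cells. Col12a1 was again lower, at 32.2 and 15.01 CPM (-1.10, -1.46 to -0.75), the 1 of 18 measured members past 2-fold between the libraries, where 0.859% of all genes were lower and 0.286% higher.

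Endothelial-marker cells carried the multiplexins. Col15a1 stood at 764 CPM in control and 1437 CPM in anti-PD-1 (0.91, 0.68 to 1.14), 339-fold and 723-fold its tumour-marker level. Col18a1 stood at 1.503-fold and 1.34-fold. Over all members, 7 of 21 were more than 2-fold above the tumour-marker level in control, against 13.5% of all genes, and 4 below, against 21.5%. In anti-PD-1 these were 10 (18%) and 5 (21%). Between the libraries, 1 of 11 measured members was more than 2-fold higher, Col3a1, against 0.925% of all genes, and 3 were lower (Col1a1, Col1a2 and Col5a3), against 4.77%. With 54 and 32 cells, single cells weighed on such values. Without the top cell of each library Col3a1 was no longer past 2-fold (0.77, 0.38 to 1.16), whereas Col6a3 then was (-1.35, -1.96 to -0.79). Col1a1 was 1552 and 95.1 CPM there, and 527 of its 780 control UMIs were in 1 cell. Without the top cell of each library its ratio was -4.07. Pericyte and smooth muscle markers summed to 585 CPM in control and 206 CPM in anti-PD-1 in these cells, with 0 and 3 of 6 genes at 0, and their part was not tested.

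Tumour-marker cells were clustered without any collagen gene, to see whether levels differed among them. Clusters are given by number and leading genes, with no type name. Of 10 clusters, 9 had at least 50 cells in both libraries. Cluster 4 (28 and 891 cells) was not compared between libraries. Clusters held different shares of each library, as cluster 3, led by Il24 and Trib3, held 984 control and 59 anti-PD-1 cells, and cluster 0, led by Plin4 and Mxd4, held 272 and 1192.

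Col3a1 varied most of the abundant fibrillar members over the clusters. Its highest level was in cluster 8, led by Islr and Ptn, at 4908 CPM in control and 8694 CPM in anti-PD-1. Its lowest was in cluster 3, at 310 and 437 CPM, so the range was 15.8-fold and 19.9-fold. Cluster 8 was also led by Pdgfrb, Bgn and Adamts1, genes known from stromal cells as well (3.39-fold, 3.11-fold and 3.60-fold over the other tumour-marker cells). Its fibroblast list summed to 502 and 568 CPM, the highest of the 9 clusters, with 0 and 1 of 6 genes at 0, against 122 and 164 CPM in cluster 3. Its pericyte list summed to 2.55 and 4.41 CPM, with 1 and 4 of 6 at 0. The part of these stromal genes in the Col3a1 level was not tested. Col6a2 spread over 14.04-fold and 26.9-fold, and Col6a1 over 10.5-fold and 13.9-fold, with cluster 8 highest and cluster 3 lowest for both genes in both libraries. Col5a1 followed the same order with a 4.52-fold and 6.95-fold range. Col5a3 ranged less than Col3a1, 1.99-fold in control (505 to 1005 CPM) and 1.43-fold in anti-PD-1. In control Col16a1 (1.86-fold), Col6a3 (1.92-fold) and Col8a1 (1.93-fold) ranged less than Col5a3. In anti-PD-1 these members ranged more than Col5a3. The promoter windows of the wider-ranging Col5a1 (76.4%) and Col6a2 (64.4% and 59.2%) were also rich in G and C. A link of promoter letters to these ranges was not tested. Among thinned cells, the 10% with most UMIs of the gene held 48.0% and 46.4% of Col3a1 UMIs, against 33.1% and 31.6% for Col5a3.

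**Figure D5:**
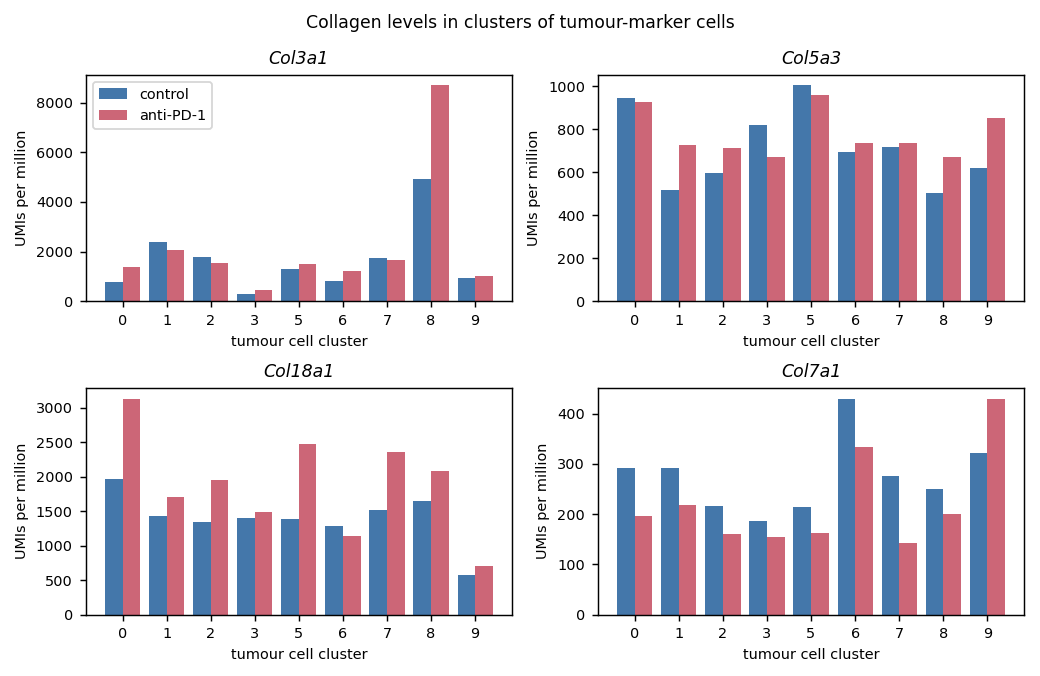
Bars give CPM of Col3a1, Col5a3, Col18a1 and Col7a1 in 9 clusters of tumour-marker cells, in control and anti-PD-1. Clusters were made without collagen genes and each panel has its own axis from 0. Col3a1 peaks in cluster 8 (4908 and 8694 CPM), Col5a3 is within a 1.99-fold range over clusters, and Col18a1 is higher in anti-PD-1 in 8 of 9 clusters.

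Within clusters, Col18a1 was higher in anti-PD-1 in 8 of 9, with log2 ratios from -0.18 to 0.83, and 7 of the intervals lay above 0. The exception was cluster 6, led by the hypoxia genes Adm and Car9 with Nos2, at 1292 and 1143 CPM. The ratio of its mean levels, with clusters weighted equally, was 0.44, less than the 0.71 over all tumour-marker cells. Col6a1 was higher in 9 of 9 clusters (8 intervals above 0), and Col6a2 in 8 of 8. Col7a1 was lower in 8 of 9, the exception being the shallow cluster 9. Col3a1 was higher in 6 of 9 (-0.21 to 0.82). Over all members together the ratio was above 0 in 8 of 9 clusters, and the mean of the cluster log2 ratios was 0.21.

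Col8a1 and Col12a1 had their highest ratios in cluster 6. Col8a1 was 66.4 CPM in control and 152 CPM in anti-PD-1 there (1.19). Col12a1 was 12.04 and 34.4 CPM (1.52), opposite to its direction in fibroblast-marker cells. Over the 8 clusters with enough UMIs, the Col8a1 ratio ran from -0.05 in cluster 0 to 1.19, with 4 intervals above 0: clusters 1 (0.82), 2 (0.53), 6 and 8 (0.64). Col12a1 had enough UMIs in 1 other cluster, cluster 1 (-0.20). Cluster 7, led by Fhl1, Slfn4 and Csf3r, had the deepest cells (median 23847 and 22647 UMIs). Its immune list summed to 747 and 707 CPM, the highest of the 9 clusters.

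Genes that modify, process or bind collagen were taken from fixed lists. Of 20 measured modification and folding genes in tumour-marker cells, 1 was more than 2-fold higher and 1 lower in anti-PD-1, where 0.919% of all genes were higher and 2.31% lower. The lower one was Creb3l1, a transcription factor of secretory cells, with 75 and 42 UMIs (-1.06), named after its value was seen. P4ha3, a subunit of a prolyl hydroxylase, was the higher one, at 11.9 and 27.6 CPM (1.22, 1.10 to 1.33). P3h3, which hydroxylates prolines at another position, was at 179 and 264 CPM (0.56), and its relative P3h2 at 5.56 and 4.12 CPM (-0.43). Colgalt1, which adds galactose to hydroxylysine, was at 266 and 355 CPM (0.41). None of 13 processing and crosslinking genes passed 2-fold, although Adamts3 (0.50), Adamts14 (0.45) and Bmp1 (0.41), which trim the ends of procollagen, and the crosslinking enzyme Loxl3 (0.40) were higher. Of 8 receptors, the integrin chain Itga2 was lower, with 225 and 107 UMIs (-1.30). Lair1, an inhibitory collagen receptor of leukocytes, was at 5.90 and 2.95 CPM (-0.999), and the uptake receptor Mrc2 at 59.2 and 79.3 CPM (0.42). The collagen receptor kinase Ddr2 was at 703 and 551 CPM (-0.35).

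In fibroblast-marker cells, 2.54% of all genes were more than 2-fold lower and 0.279% higher. Of 18 modification and folding genes, 4 were lower and 0 higher. They were Creb3l1 (-1.86), the folding helper Fkbp14 (-1.497, from 79 and 43 UMIs, named after its value was seen), and the prolyl hydroxylase subunits P4ha2 (-1.11) and P4ha3 (-1.05). P3h4, a partner of the modifying enzymes, was at 118 and 169 CPM (0.52). Of 13 processing genes 3 were lower: the crosslinking enzymes Lox, at 503 and 101 CPM (-2.32, -2.50 to -2.15), and Loxl1 (-1.17), and the procollagen protease Adamts2 (-1.52). Sparc, a collagen-binding matrix protein, was at 4199 and 2663 CPM (-0.66). None of 5 receptors passed 2-fold, with ratios of 0.36 for the kinase Ddr1, 0.21 and 0.18 for the integrin chains Itgb1 and Itga1, and 0.12 for Mrc2. The share of type I-high cells in this class differed between the libraries as given above, and its part in these values was not tested.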

How the data were processed

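The deposited values are counts of UMIs per gene and barcode, not normalized, per the file headers. Per the submitters' processing notes, Cell Ranger 7.0.1 and the mm10 build were used, whereas the matrix headers carry 9.0.1. The labels' protocol names a 10x Flex probe kit and also a 3' protocol. The deposited barcodes had at least 493 and 494 UMIs, so shallower ones were not analysed here. Counts were read with numpy 2.4.6, scipy 1.17.1 and pandas 2.3.3. A cell passed a marker list with at least 3 UMIs of it and 500 CPM (tumour, endothelial) or 1000 CPM (fibroblast, immune). No doublet caller was run. Log2 ratios have exact conditional binomial 95% intervals, shares exact Clopper-Pearson ones, and no p-value was computed. A gene counted as differing when past 2-fold with at least 100 UMIs. Tumour-marker cells were clustered (Leiden, resolution 0.5, 15 neighbours on 30 components of 2000 variable genes) with scanpy 1.11.5. All 38 members were accounted for, those with at least 1000 UMIs in full, and up to 4 genes per other list with at least 200 UMIs and the largest ratios. Members and lists were chosen with earlier results of these data known, and the tumour list was picked after seeing which genes were detected. The ratio and interval code was tested on simulated data.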

Additional observations from a re-analysis of the deposited data

Results flagged for a closer look

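Col1a1 stood out because its difference between the libraries had opposite directions in classes of the same tumours. The log2 ratio, anti-PD-1 over control, was 0.86 in double-marker cells (1.86 without the cell of most Col1a1 UMIs in each library), -0.42 in tumour-marker cells, where the level was below that of immune-marker cells, and -1.03 in fibroblast-marker cells. The double-marker value rests on few cells, with 5 type I-high cells in control and 10 in anti-PD-1. The thinned share of double-marker cells with a Col1a1 UMI was lower in anti-PD-1 (6.74% in control and 4.89%). Col8a1 had opposite directions too, with 0.25 in tumour-marker cells and -1.51 in fibroblast-marker cells. The difference between classes was not tested, since each group has 1 library.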

How the results depend on the processing

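No paired analysis was possible because each group has 1 library. The share of member UMIs in tumour-marker cells (control, anti-PD-1) was 48.6% and 55.2% with at least 1000 genes per cell, 21.6% and 31.5% with marker limits halved, 41.2% and 48.2% with them doubled, 63.8% and 66.4% with mixed cells put to their highest list, and 56.5% and 58.0% without cells over 3 times the median UMIs. The summed ratio in tumour-marker cells was 0.33 with limits halved, 0.31 doubled, 0.29 with mixed cells assigned, 0.35 as a mean per cell, 0.32 in tumour-marker cells low in fibroblast and immune markers and 0.14 without Col18a1; the last 2, the limit of 100 CPM of tumour markers and the removal of top cells were chosen after seeing the data. Members more than 2-fold higher in fibroblast-marker cells numbered 1 with limits halved and 1 with tumour markers under 100 CPM; those lower numbered 2 with mixed cells assigned, 1 without the deep cells and 1 as a mean per cell. Over all cells, 0 were lower without the deep cells, 0 as a mean per cell and 6 at a minimum of 30 UMIs. That last setting lets in sparse members such as Col13a1 (55 and 9 UMIs) and Col11a1 (36 and 3). Except for the group under 100 CPM of tumour markers, the share of all genes past 2-fold was not computed for these alternatives. Their counts are therefore no result about collagens. In tumour-marker cells 1 was higher with clusters weighted equally (Col12a1, 1.14, from 2 clusters). In tumour-marker cells 16 of 18 members kept their direction under every alternative that gave a value, and Col1a1 (up to 0.02) and Col12a1 did not. In fibroblast-marker cells 12 of 16 did. Col5a1 and Col5a3 kept theirs in 4 of 8, and Col3a1 and Col5a2 in 7 of 8. The cause was not tested. Depth limits the 15 members under 100 UMIs and the endothelial-marker cells.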
